A study of Mus musculus with 10 samples.

Results

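The 45 genes described here are cell cycle genes, chosen by symbol: 19 act in or just before S phase, when DNA is copied, and 26 act in mitosis, when the copies are separated. All 45 had a row in the deposited table of 48825 genes, and all 45 passed the filter on low values, 10 or more normalized counts in 2 or more libraries, that left 15716 genes for testing. They were followed across 10 bulk RNA sequencing libraries of tumor-infiltrating T cells from mice with melanoma. All mice were of 1 strain, whose alleles include BrafCA and Tyr::CreER, although the genotype field of the labels reads wild type. Tyr::CreER is an inducible Cre recombinase under a melanocyte promoter, so the BrafCA allele is meant to recombine in melanocytes and not in T cells, and tumors were induced locally. The mice were age-matched, and their age is not given in the labels used here. Control mice (3 libraries) had normal chow. The CSF1Ri group (2 libraries) ate chow with 600 mg/kg of PLX6134, an inhibitor of the macrophage growth factor receptor CSF1R. The CD40 group (3 libraries) was injected every 3 days with 10 mg/kg of FGK4.5, an antibody that activates CD40 on antigen-presenting cells. The CSF1Ri+CD40 group (2 libraries) had both. Treatment began 30 days after induction and lasted up to 30 days. Libraries keep their title numbers, except that 1 CSF1Ri title has none and is called CSF1Ri 1. Each library pooled at least 3 tumors, so the p-values below measure the spread between pools.

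T cells that meet their antigen leave quiescence and divide. E2F factors first switch on the genes for origin licensing and for making DNA building blocks. Later, a repressor complex bound at CHR elements (cell cycle genes homology region) gives way to activators, and the mitotic cyclins, kinases and spindle proteins are transcribed. Transcripts of either class are therefore widely read as a measure of how many cells in a sample are cycling. In bulk libraries, fewer cycling cells and less RNA per cycling cell cannot be told apart.

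The start regions of the members differed between the classes in the letters they hold. A RefSeq sequence (build GRCm38.p6) from 250 bases before to 50 after the start was matched to 37 of the 45 members, in 39 sequences. Searched on both strands were the CHR letters, TTTGAA or TTTAAA. The CCAAT box was searched by the letters of its name. The full E2F form was TTTCCCGC, TTTGGCGC, TTTCGCGC or TTTGCCGC, and the E2F core was any of these without its first T, so that the full form always holds the core. A CHR match was present for 19 of 21 mitotic members (90.5%) and 7 of 16 S phase members (43.8%), against 27.6% of 32851 RefSeq promoters of the same length. The E2F core ran the other way, with 4 of 21 mitotic members (19.0%), 10 of 16 S phase members (62.5%) and 9.57% of all promoters. The full E2F form was found for 4.76%, 43.8% and 2.26% of these sets. CCAAT boxes were common in both classes, at 81.0% of mitotic and 62.5% of S phase members against 37.4% overall. A match describes the letters only and is not evidence that a factor binds there.

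**Figure D1:**
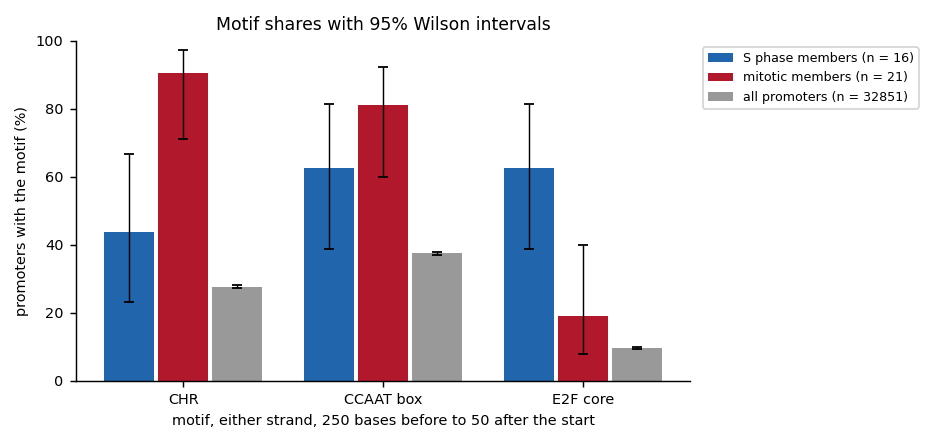
Share of promoters (percent, vertical axis) that hold each motif on either strand, for S phase members, mitotic members and all RefSeq promoters, with 95% Wilson intervals as whiskers. The CHR share was 90.5% in mitotic and 43.8% in S phase members, and the E2F core share 19.0% and 62.5%.

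The 120 bases before the start are printed for 7 members that recur below, 5′ to 3′ on the strand of the gene, with CHR, CCAAT box and E2F core matches in capitals (a match on the other strand reads as its reverse complement, such as TTCAAA or ATTGG). The mitotic members come first: Top2a (chr11:99024190-99024309, minus strand), Kif11 (chr19:37376262-37376381, plus), Spc25 (chr2:69206214-69206333, minus) and Mki67 (chr7:135716380-135716499, minus).
Top2a: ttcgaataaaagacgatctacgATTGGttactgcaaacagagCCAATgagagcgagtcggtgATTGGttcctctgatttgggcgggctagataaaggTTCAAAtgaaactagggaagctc
Kif11: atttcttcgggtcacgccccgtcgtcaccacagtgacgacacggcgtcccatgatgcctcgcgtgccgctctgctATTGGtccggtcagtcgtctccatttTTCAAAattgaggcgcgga
Spc25: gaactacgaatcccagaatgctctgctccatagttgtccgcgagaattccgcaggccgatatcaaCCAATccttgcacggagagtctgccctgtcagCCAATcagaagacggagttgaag
Mki67: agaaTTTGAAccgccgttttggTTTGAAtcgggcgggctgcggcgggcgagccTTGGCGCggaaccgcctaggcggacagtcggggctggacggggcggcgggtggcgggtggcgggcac
The S phase members follow: Mcm6 (chr1:128359706-128359825, minus), Rrm1 (chr7:102441575-102441694, plus) and Mcm2 (chr6:88898781-88898900, minus).
Mcm6: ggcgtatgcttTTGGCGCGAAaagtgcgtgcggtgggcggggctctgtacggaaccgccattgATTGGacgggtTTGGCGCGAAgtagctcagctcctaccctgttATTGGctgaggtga
Rrm1: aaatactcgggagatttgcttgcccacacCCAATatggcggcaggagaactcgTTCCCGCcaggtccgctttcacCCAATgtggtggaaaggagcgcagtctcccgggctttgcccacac
Mcm2: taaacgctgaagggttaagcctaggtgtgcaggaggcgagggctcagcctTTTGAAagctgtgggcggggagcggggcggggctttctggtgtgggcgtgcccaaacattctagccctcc
Top2a and Kif11 show a CHR match close to the start with CCAAT boxes upstream of it. The CHR match of Spc25 lies outside the printed stretch, 25 to 30 bases after the start. Mki67 holds CHR letters together with an E2F core, Mcm6 holds overlapping E2F cores at 2 places, and Mcm2 is an S phase member with a CHR match and no E2F core in its window.

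Facts of the whole series bear on what follows. The titles name T cells, but the tissue given in the labels is tumor macrophages. The summed level of 10 T cell markers was 104967 to 176727 normalized counts per library, and that of 10 macrophage markers 518 to 2595. Sums ran from 276 to 1211 for 9 melanoma markers, 4397 to 7000 for 6 B cell, 322 to 2516 for 9 keratinocyte, 34 to 4864 for 7 fibroblast, 497 to 1050 for 5 endothelial, 559 to 18198 for 7 mast cell and 13 to 15906 for 6 erythroid markers. Libraries CD40 2 and CD40 3 stood apart in earlier results of these data. Y-linked transcripts summed to 2438 in control 1, 1569 in CD40 2 and 3072 in CD40 3, and to 0 or 1 in the other 7 libraries. For the main log2 differences and class medians that changed by over 1.5 times without these libraries, a value fitted without them is given too. This leaves out the medians of the interaction, which were not refitted.

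Cycling transcripts were plentiful in all 10 libraries and their total differed little. The S phase members together held 24484, 24358 and 28558 normalized counts in control 1, 2 and 3, 25016 and 26668 in CSF1Ri 1 and 6, 26766, 21265 and 24402 in CD40 1, 2 and 3, and 29240 and 28857 in CSF1Ri+CD40 1 and 3. Both CSF1Ri+CD40 libraries lay above the other 8, by little over control 3, and CD40 2 was lowest. The mitotic members held 20403, 24307 and 24889 in control, 21019 and 20284 in CSF1Ri, 23609, 22011 and 24803 in CD40, and 24650 and 24427 in CSF1Ri+CD40. Here the CSF1Ri libraries were low and apart from the CD40 and the CSF1Ri+CD40 libraries, while control 1 lay beside them. As a share of all normalized counts, the 45 members made up 0.368% and 0.369% in CSF1Ri against 0.425% and 0.418% in CSF1Ri+CD40. The share was 0.376%, 0.384% and 0.443% in control, above both CSF1Ri libraries and overlapping CSF1Ri+CD40, and 0.309% to 0.426% in CD40, which overlapped every other group.

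**Figure D2:**
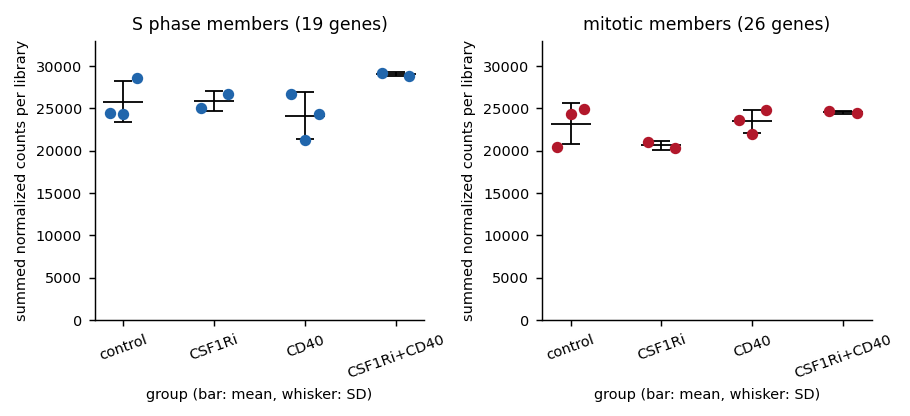
Summed normalized counts per library (vertical axis) of the 19 S phase members (left) and 26 mitotic members (right) by group; points are libraries, bars are means and whiskers SD. The CSF1Ri+CD40 libraries are highest for the S phase sum, at 29240 and 28857, and the CSF1Ri libraries are low for the mitotic sum, at 21019 and 20284.

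A sum is led by abundant genes. A mean over genes on the log2 scale can be led by 1 very low value, and it gave another order. With each gene centered on its own mean, the S phase members averaged 0.100 and 0.000 in CSF1Ri+CD40 1 and 3, between control 2 (-0.059) and control 3 (0.141). The mitotic members averaged 0.154 and -0.149 there, so the CSF1Ri+CD40 libraries enclosed those of CSF1Ri (-0.080 and -0.141). The average of CSF1Ri+CD40 3 was pulled down by Cdc25c, at 5 normalized counts. By number, 17 of 26 mitotic members lay above their own mean in each CSF1Ri+CD40 library, against 9 and 10 in CSF1Ri 1 and 6. The number was 11, 16 and 16 in control 1, 2 and 3 and 15, 14 and 18 in CD40 1, 2 and 3. So CSF1Ri+CD40 was close to most control and CD40 libraries. The matching share over all genes was not counted. The lowest S phase value was that of CD40 2, at -0.390, and in that library 11 members, 8 of them S phase, had their lowest level of all 10. In the other libraries this number ran from 0 in CD40 1 to 6 in control 1 and CD40 3. The share of all genes that were lowest in CD40 2 was not counted. So the number cannot be called particular to the members.

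Members varied less between libraries of a group than other genes did. The median SD within groups on the log2 scale was 0.359 over the 45 members, 0.329 for the S phase and 0.378 for the mitotic class. It was 0.478 over the 8810 tested genes whose mean lay in the members' range of 86.1 to 5096, and 0.717 over all 15716. Those genes were not matched to the members by level within that range. A part of level in the difference was therefore not tested. Per kilobase of exon, the highest mean levels were those of Rrm2 (1840 normalized counts per kb), Pcna (1410) and Ccnb2 (1000), and E2f8 was lowest at 18.9.

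**Figure D3:**
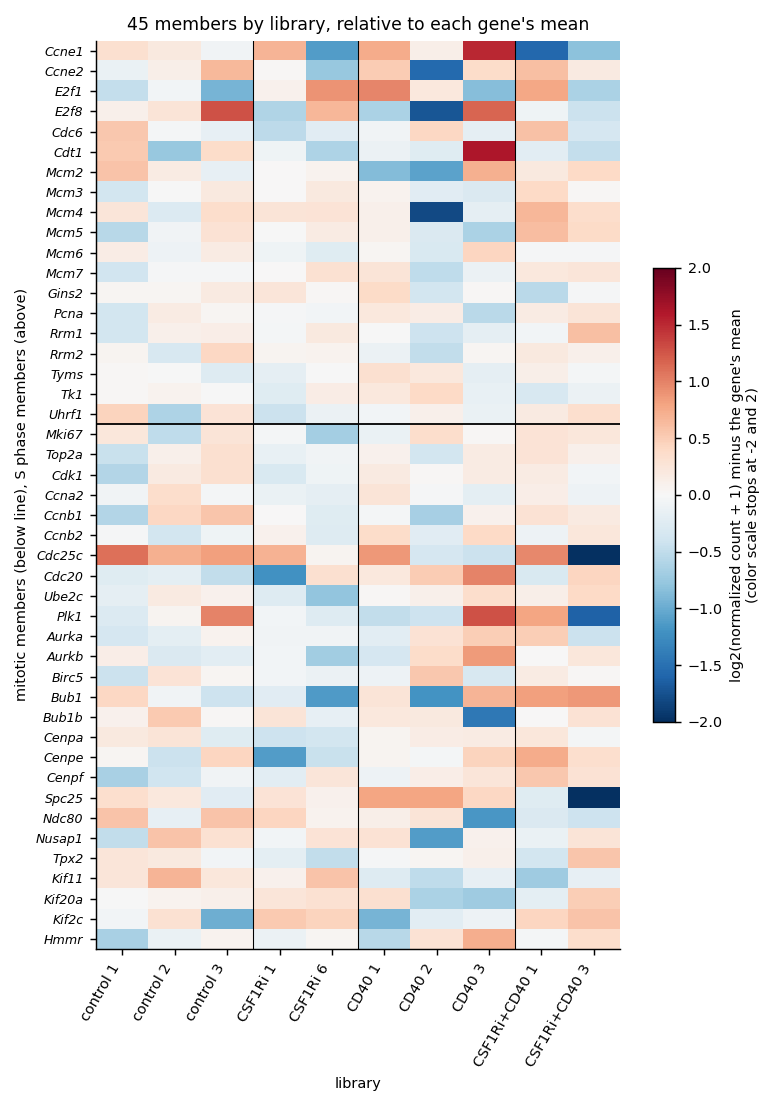
Level of each member (rows) in each library (columns) as log2(normalized count + 1) minus the gene's mean over the 10 libraries, in color, with groups separated by vertical lines. No group is uniformly red or blue; CD40 2 is blue for several S phase members, such as Mcm4 at 467, and Cdc25c and Spc25 are dark blue in CSF1Ri+CD40 3, at 5 and 89.

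Among the regulators that start S phase, the G1/S cyclin Ccne1 was lowest in the mice given both agents. It held 107, 98 and 81 normalized counts in control, 137 and 39 in CSF1Ri, 144, 93 and 246 in CD40, and 28 and 48 in CSF1Ri+CD40. The CSF1Ri+CD40 libraries did not overlap those of control or CD40, but CSF1Ri 6 lay between them. The fitted log2 difference was -1.99 ± 0.70 (SE) over CD40 and -1.34 over control, with limma adjusted p of 0.929 and 0.925. The related cyclin Ccne2 did not share this order, with 272, 324 and 464 in control, 303 and 175 in CSF1Ri, 422, 100 and 383 in CD40, and 451 and 338 in CSF1Ri+CD40. Its exons overlap those of Ints8 on the other strand, and the libraries carry no strand information. E2f1, an activator of S phase genes, was at 55, 74 and 40 in control, 82 and 145 in CSF1Ri, 153, 89 and 42 in CD40, and 132 and 49 in CSF1Ri+CD40. Both CSF1Ri libraries lay above control, by 0.99 ± 0.74 on the log2 scale and by 0.58 without CSF1Ri 6. E2f8, a repressor of the same genes, ranged from 26 in CD40 2 to 212 in control 3 and was at 82 and 64 in CSF1Ri+CD40, below all control libraries (93, 104 and 212).

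Origin licensing members load the replicative helicase onto DNA. Cdc6 helps to load it and held 758, 506 and 461 in control, 360 and 443 in CSF1Ri, 492, 695 and 460 in CD40, and 776 and 411 in CSF1Ri+CD40. It was lower in both CSF1Ri libraries than in every control library, with a log2 difference of -0.49 ± 0.37 (95% interval -1.30 to 0.32), and of -0.27 without control 1. Cdt1, its partner, ran from 115 in control 2 to 601 in CD40 3 with a median of 175.5.

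The mean level of 5 of the 6 helicase subunits Mcm2 to Mcm7 was higher with both agents than in control, Mcm6 being the exception. Mcm5 held 974, 1364 and 1733 in control, 1423 and 1593 in CSF1Ri, 1524, 1164 and 921 in CD40, and 2178 and 1866 in CSF1Ri+CD40. Both libraries of the last group exceeded all 8 others. Here and for members below, the share of all genes with a group apart from all 8 others was not counted. The log2 difference was 0.61 ± 0.30 over control, 0.78 ± 0.30 over CD40 and 0.42 ± 0.32 over CSF1Ri, and limma gave unadjusted p of 0.0625, 0.0231 and 0.219, with adjusted p of 0.925 or more. The difference over control was 0.39 without control 1, and that over CD40 was 0.40 without CD40 2 and CD40 3. Mcm4 held 1933, 1357 and 2088 in control, 1954 and 1963 in CSF1Ri, 1745, 467 and 1448 in CD40, and 2583 and 2087 in CSF1Ri+CD40. Its level in CD40 2 was less than that in any other library, and control 3 lay within the range of the combination. Its log2 difference between CD40 and control was -0.74 with all libraries, -0.15 without CD40 2 and 0.05 over the libraries without Y-linked transcripts.

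The other helicase subunits showed smaller differences. Mcm2 held 1157, 873 and 695 in control, 786 and 818 in CSF1Ri, 427, 371 and 1276 in CD40, and 896 and 1027 in CSF1Ri+CD40, so CD40 libraries gave both its lowest and its highest value. Its log2 difference between CD40 and control was -0.60 with all libraries, -0.27 without CD40 2, -1.16 without CD40 3 and -1.06 without both. Mcm7 held 1298, 1668 and 1672 in control against 1703 and 2096 in CSF1Ri and 1966 and 2008 in CSF1Ri+CD40, with 2024, 1192 and 1554 in CD40. Its exons overlap those of Cops6 and Ap4m1. Mcm6 was higher in CSF1Ri+CD40 (1684 and 1678) than in CSF1Ri (1606 and 1451), while CD40 (1763, 1382 and 2311) enclosed both and control held 1885, 1596 and 1907. Mcm3 ran from 1427 in control 1 to 2432 in CSF1Ri+CD40 1.

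At the replication fork, Pcna, the sliding clamp of DNA polymerases, held 2607, 3760 and 3441 in control, 3281 and 3225 in CSF1Ri, 3867, 3718 and 2311 in CD40, and 3737 and 4010 in CSF1Ri+CD40. The CSF1Ri+CD40 libraries lay above those of CSF1Ri, by 0.25 ± 0.28 on the log2 scale, and overlapped control and CD40. Uhrf1, which carries DNA methylation to the new strand, showed the same order between these groups, at 452 and 561 against 690 and 767, with 830, 398 and 735 in control and 586, 649 and 556 in CD40. Gins2, a helicase cofactor, showed the reverse order, at 608 and 523 in CSF1Ri against 355 and 507 in CSF1Ri+CD40. It held 531, 529 and 580 in control and 668, 398 and 525 in CD40, and its exons overlap those of Gse1 over 2758 bases.

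Among the nucleotide synthesis members, Rrm2, the regulated subunit of ribonucleotide reductase, held 5246, 4027 and 6671 in control, 5200 and 5279 in CSF1Ri, 4612, 3576 and 5163 in CD40, and 5775 and 5413 in CSF1Ri+CD40. Its log2 difference between CSF1Ri+CD40 and CSF1Ri was 0.09 ± 0.26, although the libraries did not overlap. Tyms, which makes thymidylate, held 1892, 1856 and 1556 in control, 1650 and 1858 in CSF1Ri, 2314, 2144 and 1652 in CD40, and 2017 and 1810 in CSF1Ri+CD40, and all 4 groups overlapped. Tk1, the thymidine salvage kinase, was lower in CSF1Ri+CD40 (1051 and 1212) than in control (1335, 1389 and 1303), with 1110 and 1452 in CSF1Ri and 1530, 1726 and 1187 in CD40. Rrm1, the large subunit of the reductase, ran from 1733 in CD40 2 to 3536 in CSF1Ri+CD40 3.

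Of the members that act on chromosome structure, Mki67, the usual marker of cycling cells, had its lowest group mean in CSF1Ri (1424). It held 2094, 1262 and 2145 in control, 1731 and 1118 in CSF1Ri, 1634, 2270 and 1825 in CD40, and 2151 and 2084 in CSF1Ri+CD40. The CSF1Ri+CD40 libraries lay above those of CSF1Ri, by 0.61 ± 0.32 (95% interval -0.10 to 1.31), and overlapped control and CD40. The unadjusted p of this difference was 0.0864 and the limma adjusted p was 1. Top2a, the topoisomerase that untangles the copied chromosomes, held 2256, 3290 and 3835 in control, 2768 and 2927 in CSF1Ri, 3242, 2381 and 3431 in CD40, and 3707 and 3279 in CSF1Ri+CD40. Again the CSF1Ri+CD40 values exceeded those of CSF1Ri, by 0.29 ± 0.28, and control spanned the whole range.

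**Figure D4:**
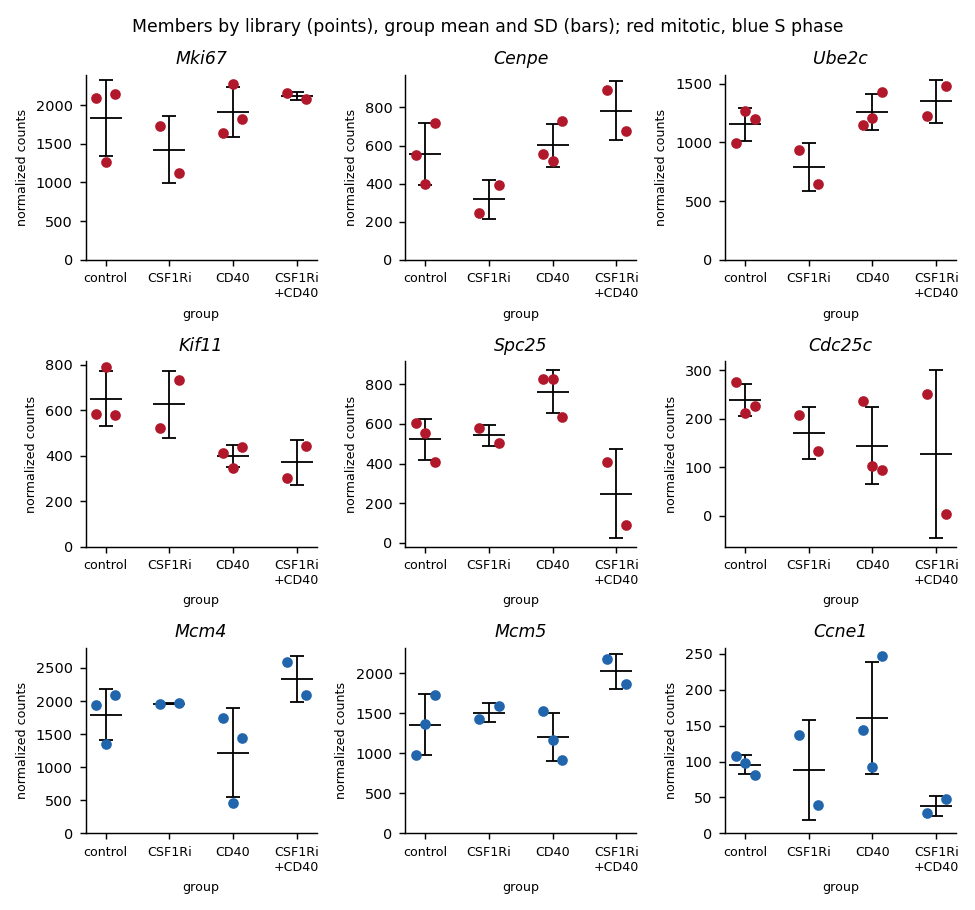
Normalized counts (vertical axes, each with its own scale) of 9 members in each library by group, with group means as bars and SD as whiskers; the SD of 2 libraries can reach below 0. Cenpe and Ube2c are higher in both CSF1Ri+CD40 than in both CSF1Ri libraries, and Kif11 is lower in all CD40 than in all control libraries.

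Mitotic entry is driven by the kinase Cdk1 with cyclins A and B. Cdk1 held 910, 1562 and 1719 in control, 1107 and 1298 in CSF1Ri, 1551, 1391 and 1544 in CD40, and 1543 and 1316 in CSF1Ri+CD40. Ccnb1 held 824, 1646 and 1816 in control, 1243 and 1043 in CSF1Ri, 1195, 780 and 1312 in CD40, and 1506 and 1396 in CSF1Ri+CD40. In both genes control 1 was low and the CSF1Ri+CD40 libraries lay above the CSF1Ri libraries, by 0.25 ± 0.31 for Cdk1 and 0.35 ± 0.39 for Ccnb1. Ccna2 held 701 and 676 in CSF1Ri, below control (731, 974 and 745) and CSF1Ri+CD40 (837 and 712), with 919, 751 and 670 in CD40. Ccnb2 ran from 1166 in control 2 to 1987 in CD40 3.

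Cdc25c, a phosphatase that activates Cdk1, had the widest range of the members. It held 276, 212 and 227 in control, 208 and 133 in CSF1Ri, 236, 102 and 95 in CD40, and 250 and 5 in CSF1Ri+CD40. Only CSF1Ri+CD40 3 lay near 0, while CSF1Ri+CD40 1 had the second highest value of the 10. The log2 difference of -2.62 ± 1.16 between CSF1Ri+CD40 and control therefore rests on that library. By the estimate given with the processing below, that library had the fewest reads in genes, and the part of depth was not tested.

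The ubiquitin machinery that ends mitosis was represented by Ube2c and Cdc20. Ube2c, the E2 enzyme of the anaphase-promoting complex, held 994, 1270 and 1195 in control, 938 and 649 in CSF1Ri, 1144, 1205 and 1432 in CD40, and 1220 and 1477 in CSF1Ri+CD40. The CSF1Ri libraries were below all 8 others. The log2 difference was -0.56 ± 0.26 for CSF1Ri over control and 0.78 ± 0.28 for CSF1Ri+CD40 over CSF1Ri, with unadjusted p of 0.0535 and 0.0177 and limma adjusted p of 1 for each. Without CSF1Ri 6 these differences were -0.29 and 0.52. Cdc20, an activator of the complex, held 281, 290 and 235 in control, 143 and 413 in CSF1Ri, 385, 474 and 660 in CD40, and 268 and 446 in CSF1Ri+CD40. All CD40 libraries exceeded all control libraries, by 0.88 ± 0.42 (unadjusted p 0.0589, limma adjusted p 0.773). The difference was 0.52 without CD40 2 and CD40 3 and 0.56 over the libraries without Y-linked transcripts. The CSF1Ri libraries lay on either side of control.

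Among the mitotic kinases, Plk1, which acts from mitotic entry to cell division, held 123, 155 and 298 in control, 143 and 124 in CSF1Ri, 106, 111 and 361 in CD40, and 257 and 48 in CSF1Ri+CD40. No group stood apart. Aurkb, the kinase that corrects faulty spindle attachments, held 704, 524 and 555 in control, 622 and 397 in CSF1Ri, 508, 832 and 1158 in CD40, and 643 and 754 in CSF1Ri+CD40. Its partner Birc5 (survivin) held 1585 and 1512 in CSF1Ri and 1843 and 1683 in CSF1Ri+CD40, with 1228, 1992 and 1692 in control and 1530, 2390 and 1315 in CD40. For both genes the CSF1Ri+CD40 libraries lay above the CSF1Ri libraries and within the range of control or CD40. Aurka, the centrosome kinase, ran from 342 in CSF1Ri+CD40 3 to 649.

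The checkpoint kinase Bub1 held 188, 135 and 106 in control, 120 and 64 in CSF1Ri, 169, 61 and 226 in CD40, and 251 and 258 in CSF1Ri+CD40. The CSF1Ri+CD40 libraries were above all 8 others. The log2 difference was 1.53 ± 0.67 over CSF1Ri, with an unadjusted p of 0.0432 and a limma adjusted p of 1. Its relative Bub1b ran from 139 in CD40 3 to 538 in control 2.

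At the centromere and kinetochore, where chromosomes meet the spindle, members differed in opposite directions. Cenpe, a motor that brings chromosomes to the spindle middle, held 548, 396 and 720 in control, 245 and 390 in CSF1Ri, 554, 517 and 731 in CD40, and 892 and 675 in CSF1Ri+CD40. The CSF1Ri libraries were below all 8 others. The log2 difference was -0.80 ± 0.35 over control (unadjusted p 0.0445) and 1.33 ± 0.39 for CSF1Ri+CD40 over CSF1Ri (unadjusted p 0.00545), with limma adjusted p of 1 for each. The difference over control was -0.47 without CSF1Ri 1. Cenpa, the centromeric histone, held 1113 and 1157 in CSF1Ri against 1695, 1772 and 1261 in control, 1546, 1650 and 1669 in CD40, and 1739 and 1452 in CSF1Ri+CD40, so it too was lowest in both CSF1Ri libraries. Cenpf, a large kinetochore protein, held 294, 349 and 440 in control, 398 and 545 in CSF1Ri, 433, 509 and 548 in CD40, and 670 and 567 in CSF1Ri+CD40. Both CSF1Ri+CD40 libraries exceeded the rest, by 0.79 ± 0.31 over control (unadjusted p 0.0281, limma adjusted p 0.914).

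Spc25 and Ndc80 belong to the complex that grips microtubules at the kinetochore, and both were below control with the 2 agents together. Spc24 and Nuf2 of the same complex, from the list of other mitosis genes, were not. Spc24 held 532 and 335 in CSF1Ri+CD40 against 313, 706 and 390 in control. Nuf2 held 506 and 449 against 448, 281 and 648. Spc25 held 606, 553 and 408 in control, 579 and 506 in CSF1Ri, 825, 829 and 637 in CD40, and 406 and 89 in CSF1Ri+CD40. All CD40 libraries lay above all others, and both CSF1Ri+CD40 libraries below all others, with 406 close to the 408 of control 3. The log2 difference was -1.99 ± 0.51 over CD40 (unadjusted p 0.00242, limma adjusted p 0.761), -1.50 ± 0.56 over CSF1Ri and -1.43 ± 0.51 over control. Without CSF1Ri+CD40 3 it was -0.90 over CD40 and -0.34 over control. Ndc80 held 348 and 317 in CSF1Ri+CD40 against 629, 377 and 632 in control and 569 and 444 in CSF1Ri, while CD40 gave 462, 509 and 189.

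The spindle and motor members had no common direction. Kif11, the motor that pushes the spindle poles apart, held 584, 788 and 579 in control, 520 and 730 in CSF1Ri, 411, 347 and 439 in CD40, and 300 and 441 in CSF1Ri+CD40. Every library with the antibody lay below every library without it. The share of all genes separated in this way was not counted, here or for Kif2c below. The log2 difference was -0.70 ± 0.29 for CD40 over control (unadjusted p 0.0333, limma adjusted p 0.773) and -0.82 ± 0.32 for CSF1Ri+CD40 over control (unadjusted p 0.026, limma adjusted p 0.895). Without CSF1Ri+CD40 1 the latter was -0.54. Both comparisons use the same control libraries. Kif2c, a kinesin that shortens microtubules, was higher in every library with the inhibitor than in every library without it, at 409 and 390 in CSF1Ri and 384 and 424 in CSF1Ri+CD40 against 275, 351 and 144 in control and 150, 245 and 267 in CD40.

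Other spindle members were mixed. Kif20a, needed for the final cut between daughter cells, held 866 and 899 in CSF1Ri and 729, 766 and 787 in control, with 914, 471 and 447 in CD40 and 638 and 1024 in CSF1Ri+CD40. Its exons overlap those of Cdc23 over 1271 bases. Tpx2, which nucleates spindle microtubules, held 579 and 470 in CSF1Ri and 778, 756 and 635 in control, with 646, 675 and 711 in CD40 and 511 and 967 in CSF1Ri+CD40. Nusap1 ran from 751 in CD40 2 to 2428 in control 2, and Hmmr from 246 in control 1 to 639 in CD40 3.

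The comparison of CSF1Ri with control asks whether the inhibitor alone was accompanied by a difference in cycling transcripts. Mitotic members were lower by a median of -0.147 on the log2 scale, with 19 of 26 below control, and S phase members were even, at -0.009 with 10 of 19 below. The median over all genes tested was 0.016. Leaving out 1 library, the mitotic median ran from -0.244 (without control 1) to -0.070 (without control 2), and the S phase median from -0.098 to 0.021. No member passed limma's test at a Benjamini-Hochberg adjusted p of 0.05, against 0.00636% of all genes, and the smallest adjusted p of a member was 1. At an unadjusted p of 0.05, 0 members were higher (1.99% of all genes) and 1 was lower (Cenpe; 2.09%). The libraries of the 2 groups did not overlap for 4 members that were higher (8.89% of members against 11.6% of all genes): E2f1, Mcm7, Kif20a and Kif2c. For 7 members all CSF1Ri libraries were lower (15.6% against 10.3%): Cdc6, Ccna2, Cdc25c, Ube2c, Cenpa, Cenpe and Tpx2.

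**Figure D5:**
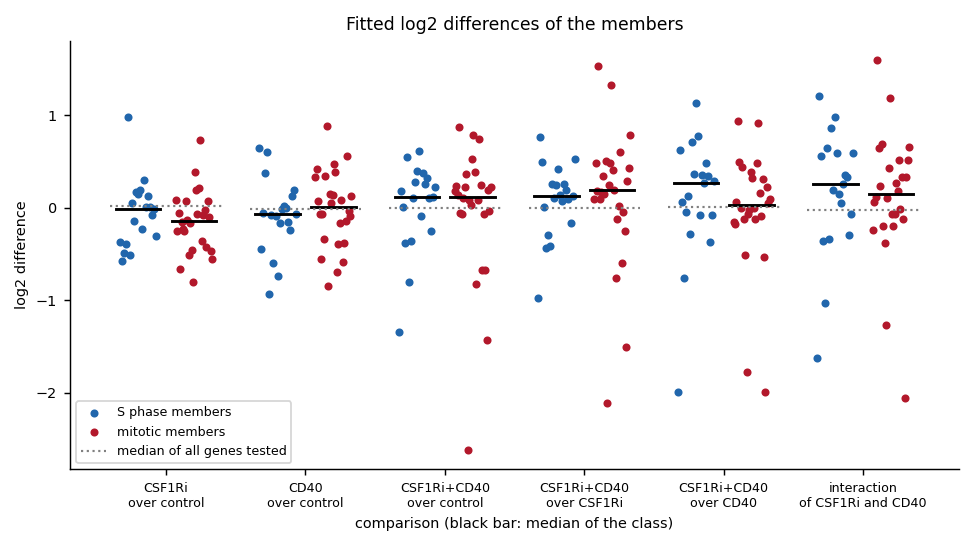
Fitted log2 difference (vertical axis) of each member in the 5 comparisons of groups and the interaction; points are genes, S phase in blue and mitotic in red, black bars are class medians and dotted lines medians of all genes tested. The class medians lie between -0.147 and 0.268, and single mitotic members such as Spc25 and Cdc25c reach below them.

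With the CD40 antibody alone, the members as a whole lay near control. The median was 0.011 for mitotic and -0.066 for S phase members, against -0.010 over all genes. With CD40 2 and CD40 3 both left out, the S phase median was 0.133 and the mitotic median -0.004. Over the libraries without Y-linked transcripts they were 0.087 and -0.079. Leaving out 1 library, the S phase median ran from -0.174 (without CD40 1) to 0.037 (without control 3). The mitotic median then ran from -0.052 (without control 1) to 0.120 (without control 3). No member passed at an adjusted p of 0.05 in limma (0.00636% of all genes did), and the smallest adjusted p was 0.773. At an unadjusted p of 0.05, 0 members were higher (2.63% of all genes) and 1, Kif11, was lower (3.76%). Cdc20 and Spc25 were higher in every CD40 than in every control library (4.44% of members against 4.19% of all genes), and Kif11 was lower (2.22% against 4.91%). These shares are near or below those of all genes.

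With both agents over control, 30 of 45 members were higher, by medians of 0.117 for S phase and 0.118 for mitotic members, where all genes had a median of -0.002. Leaving out 1 library, the S phase median ran from 0.039 (without CSF1Ri+CD40 1) to 0.283 (without control 3) and the mitotic median from 0.039 (without control 1) to 0.227 (without control 3). Both medians were 0.060 after scaling to equal totals. No member passed at an adjusted p of 0.05 in limma, nor did any other gene (0%), and the smallest adjusted p of a member was 0.866. At an unadjusted p of 0.05, 1 member was higher (Cenpf; 2.34% of all genes) and 3 were lower (Cdc25c, Spc25 and Kif11; 3.07%). Libraries did not overlap for 5 higher members (11.1% against 10.6% of all genes), which were Mcm5, Mcm7, Bub1, Cenpf and Kif2c. The 7 lower ones (15.6% against 9.6%) were Ccne1, E2f8, Gins2, Tk1, Spc25, Ndc80 and Kif11. Without CSF1Ri+CD40 1, Cdc25c (-5.31, adjusted p 0.036) and Spc25 (-2.52, adjusted p 0.0465) passed in limma among 36 genes, with the remaining library, in which they were at 5 and 89, standing for the group.

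Adding the antibody to the inhibitor gave the most members on 1 side of 0 among the 5 comparisons of groups. Over CSF1Ri, 33 of 45 were higher with both agents, by a median of 0.189 for mitotic and 0.126 for S phase members, against -0.004 for all genes. Leaving out 1 library, these medians ran from 0.157 to 0.323 (without CSF1Ri+CD40 3) and from 0.048 (without CSF1Ri+CD40 1) to 0.222 (without CSF1Ri 6). For 20 members (44.4%) both CSF1Ri+CD40 libraries lay above both CSF1Ri libraries, where this held for 16.5% of all genes. They comprised 8 S phase members (Ccne2, Mcm2, Mcm4, Mcm5, Mcm6, Pcna, Rrm2 and Uhrf1) and 12 mitotic ones (Mki67, Top2a, Cdk1, Ccna2, Ccnb1, Ube2c, Aurkb, Birc5, Bub1, Cenpa, Cenpe and Cenpf). Lower without overlap were 4 members (8.89% against 16.8%), namely Gins2, Spc25, Ndc80 and Kif11. Many of these gaps were small, and no member passed in limma at an adjusted p of 0.05, as for all genes (0%), with the smallest adjusted p at 1. At an unadjusted p of 0.05, 3 members were higher (Ube2c, Bub1 and Cenpe; 1.55% of all genes) and 1 was lower (Spc25; 2.04%).

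The higher count was 19 (42.2% against 16.2%) after scaling each library to the same total. Leaving out a library of either group gave 24 to 28 members, where 26.3% to 37.3% of all genes met the then looser condition. Members share libraries and are not replicates, so the count describes these 4 libraries. T cell marker sums overlapped between the groups, at 143861 and 157535 in CSF1Ri and 150904 and 142514 in CSF1Ri+CD40. Keratinocyte marker sums were 396 and 454 against 489 and 2516, fibroblast sums 428 and 463 against 740 and 2620, mast cell sums 1855 and 720 against 10035 and 1896, and erythroid sums 1318 and 2729 against 13 and 501. Their part in the result was not tested.

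Adding the inhibitor to the antibody left mitotic members even, with a median of 0.026, and S phase members higher by a median of 0.268, against 0.006 for all genes. The S phase median was 0.002 with CD40 2 and CD40 3 both left out, and 0.002 over the libraries without Y-linked transcripts. Leaving out 1 library, it ran from 0.164 (without CD40 2) to 0.380 and the mitotic median from 0.026 to 0.139 (without CSF1Ri+CD40 1). No member passed in limma at an adjusted p of 0.05 (0% of all genes), and the smallest adjusted p was 0.761. At an unadjusted p of 0.05, 2 members were higher (Mcm4 and Mcm5; 2.67% of all genes) and 2 were lower (Ccne1 and Spc25; 2.29%). Libraries did not overlap for 8 higher members (17.8% against 8.19%), namely Mcm4, Mcm5, Rrm2, Uhrf1, Ccnb1, Bub1, Cenpf and Kif2c, and for 2 lower ones (4.44% against 6.84%), Ccne1 and Spc25. Spc25 passed without CSF1Ri+CD40 1, at -3.08 with a limma adjusted p of 0.0307, when CSF1Ri+CD40 3 alone stood for the group.

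The interaction asks whether the 2 agents together differ from the sum of their separate log2 differences. Its median was 0.258 for S phase and 0.148 for mitotic members, with 29 of 45 above 0, against -0.021 over all genes. No member passed in limma at an adjusted p of 0.05 (0% of all genes), and the smallest adjusted p was 0.991. At an unadjusted p of 0.05, Cenpe was above 0 (1.18 ± 0.50; 2.32% of all genes) and Spc25 below (-2.06 ± 0.73; 1.85%).

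Other genes of the same processes, from 3 lists beside the members, showed no passing gene in any comparison at a limma adjusted p of 0.05. Of 42 other replication genes, 28 were higher and 14 lower with both agents over CSF1Ri, with 2 and 1 at an unadjusted p of 0.05. Of 68 other mitosis genes tested, 46 were higher and 22 lower, with 1 each at that p. Libraries did not overlap for 13 and 22 of them that were higher (31.0% and 32.4%), beside 44.4% of the members and 16.5% of all genes. For 2 and 8 that were lower (4.76% and 11.8%) they did not overlap either, beside 8.89% of the members and 16.8% of all genes. The 29 tested G1 cyclins, kinases and brakes split 17 to 12, with 1 and 0 at that p, and libraries did not overlap for 4 that were higher and 4 that were lower (13.8% each).

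Genes of these lists with the smallest p against control are given by library. Pole, the catalytic subunit of a replicative polymerase, held 224, 151 and 225 in control and 81 and 55 in CSF1Ri, with 218 and 204 in CSF1Ri+CD40. It was lower in CSF1Ri than in the other 2 of these groups. The condensin gene Ncapg2 held 554, 568 and 316 in control and 225 and 213 in CSF1Ri, and the centromere gene Cenpi 266, 184 and 221 against 52 and 143. Among brakes, the inhibitor of cyclin-dependent kinases Cdkn1b held 1610, 830 and 1078 in control and 810 and 594 in CSF1Ri, while the antiproliferative gene Btg2 held 1365, 2062 and 2183 against 3352 and 2748. So the CSF1Ri libraries were low for 1 of these brakes and high for the other. The same held for CSF1Ri+CD40, at 736 and 741 for Cdkn1b and 2924 and 2393 for Btg2. The CD40 libraries overlapped control, at 618, 670 and 918 for Cdkn1b and 2198, 1990 and 1567 for Btg2.

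In the CD40 group the smallest p belonged to genes that were mostly lower. Prim1, a primase subunit, held 1025, 1016 and 1171 in control and 859, 519 and 411 in CD40, and Mcm10 held 278, 171 and 330 against 159, 98 and 51. The midzone protein Prc1 held 1064, 1518 and 1658 against 785, 725 and 1054, and Fam64a 297, 291 and 277 against 582, 649 and 381. Fam64a alone of these was higher. The pocket proteins Rbl1 and Rbl2 are repressors of E2F targets. Rbl1 held 732, 738 and 459 against 286, 194 and 493, and Rbl2 2611, 1935 and 3006 against 1453, 1045 and 1642. Rbl1 was also below control in CSF1Ri, at 447 and 265, while the CSF1Ri libraries overlapped control for Rbl2 (2076 and 2031).

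With both agents, the replication genes Gins3 and Dscc1 differed in direction: Gins3 held 15, 87 and 156 in control and 334 and 290 in CSF1Ri+CD40, and Dscc1 148, 231 and 155 against 91 and 7. Sgol1, which protects the cohesion of sister chromatids, held 229, 156 and 311 against 349 and 573. The kinase inhibitor Cdkn1a held 154, 200 and 374 against 618 and 586. Klf2, a factor of quiescent T cells, held 1278, 822 and 675 against 438 and 378. Klf2 was also below control in CSF1Ri, at 586 and 554, while CD40 (576, 428 and 1182) overlapped control. These genes were picked for their small p in this comparison, and none passed the threshold in limma. Prc1 was at 966 and 793 with both agents.

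Members varied with little relation to each other from library to library. The correlation of a member with the mean of the other members over the 10 libraries had a median of 0.084 for S phase and 0.03 for mitotic members, and it was below 0 for 20 of the 45. Of 10260 genes outside the lists with a mean of at least 50, the closest to the mean of all members were Naa16 (Pearson r 0.955), Ifih1 (0.922) and Dhx36 (0.917). All points share the same 10 libraries and their scaling, and the correlations are given as a description. Ifih1 held 2 normalized counts in CD40 2 and 191 in CD40 3, so it followed the low and the high library of that group.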

How the data were processed

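RNA of 10 libraries was measured by non-stranded, 75-base paired sequencing from 50 ng of RNA each, per the labels' protocols. Reads were aligned with STAR to GRCm38 (mm10), counted with HTSeq and normalized with DESeq2, per the submitters' processing notes; versions and annotation release are not given in the sources used here. The deposited values are scores: gene counts that the authors scaled by library and rounded. They sum to 11538244 to 14024851 per library and are no read depths. Integers up to 300 that no gene takes occurred in CD40 2 (16) and CSF1Ri+CD40 3 (57), which puts reads in genes near 13.3 and 10.3 M (mega) there. The other libraries had no such gaps, so their reads in genes were about their totals or more. Their depth is not known more closely. By this estimate CSF1Ri+CD40 3 had the fewest reads in genes.

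Genes with at least 10 in at least 2 libraries were tested. limma 3.58.1 (R 4.3.3) was fitted with a variance trend to log2(value + 1) over the 4 groups, with 6 residual and 5.48 prior degrees of freedom. Log2 differences are on this scale, which understates changes of low genes. Tests were two-sided, p-values were Benjamini-Hochberg adjusted over 15716 genes, and the threshold was 0.05. The steps were tested on simulated data. Full values are given for 12 members always given, the 2 of each class with the smallest p per comparison and those whose groups did not overlap; ranges for the rest. From the other lists, the 2 with the smallest p per treatment over control are named. Some items, among them 1 such gene, are not reported here. Members and lists were chosen with earlier results of these data known. Positions and exon lengths are from GENCODE vM21 and promoters from RefSeq (GRCm38.p6). Title numbers were not used to pair libraries. Alternatives were the pseudocount (0.5, 5), no filter, scaling to equal totals, no trend, the compared groups alone, a replicate block, leaving out libraries and a shorter promoter window. Other steps used Python 3.11.15, pandas 2.3.3, scipy 1.17.1 and matplotlib 3.10.9.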

Additional observations from a re-analysis of the deposited data

Results flagged for a closer look

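Spc25, a kinetochore gene, went opposite ways under the CD40 antibody depending on the inhibitor. Without the inhibitor, all CD40 libraries (825, 829 and 637 normalized counts) lay above all control libraries (606, 553 and 408). With it, both CSF1Ri+CD40 libraries (406 and 89) lay below both CSF1Ri libraries (579 and 506). The difference between these effects, the interaction in limma, was -2.06 on the log2 scale, with an unadjusted p of 0.0157 and an adjusted p of 0.991, so it did not pass the threshold. It was -0.97 without CSF1Ri+CD40 3, the library at 89, and -3.15 without CSF1Ri+CD40 1.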

How the results depend on the processing

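Of 440 refits of named members, 437 kept their direction and side of the threshold, as did 108 of 110 counts of members past it. Of 186 class medians, 182 moved by less than the spread between libraries. That spread, 0.182 for S phase and 0.115 for mitotic scores, exceeds several medians, so a change of sign could go uncounted. An example is CD40 over control, where the S phase median of -0.066 was 0.037 without control 3. Leaving out a library of a group not compared could not move a difference or median. The smallest adjusted p of any member in limma was 0.761, so few refits could cross the threshold. These counts are therefore a weak check. With CD40 2 and CD40 3 both left out, the S phase median was 0.133 for CD40 over control and 0.002 for CSF1Ri+CD40 over CD40. Over the libraries without Y-linked transcripts the latter was also 0.002, and Mcm4 in CD40 over control turned to 0.052. Leaving out 1 library at a time, members past the threshold numbered 0 to 2 for CSF1Ri+CD40 over control and 0 to 1 over CD40, in each case through the absence of CSF1Ri+CD40 1, and 0 in the other comparisons. The mitotic median of CSF1Ri+CD40 over CSF1Ri ran from 0.157 to 0.323, the S phase median over CD40 from 0.164 to 0.38, and the members lower without overlap from 6 to 10. In such fits the lone library of a group is assumed to vary like the others. With the replicate block, no member passed in the 3 comparisons it could be fitted for (0), and the S phase medians were -0.066, 0.009 and 0.157 for CD40 over control, CSF1Ri+CD40 over control and CSF1Ri+CD40 over CD40. Same-numbered libraries correlated at -0.266 to 0.182 in their departures from group means, and differently numbered ones at -0.359 to 0.291. Departures within a group of 2 or 3 sum to 0, which ties these values to each other. They therefore cannot show whether libraries were paired. The CSF1Ri titles share no number. In the window of 100 bases before to 50 after the start, the E2F core was held by 37.5% of S phase and 4.76% of mitotic members. All promoters held it at 5.6%, so the mitotic share was near that of all promoters. CHR was held by 31.2% of S phase and 81.0% of mitotic members against 12.8% of all promoters. For the CCAAT box these shares were 50.0%, 71.4% and 23.4%. Depth and the 2 or 3 libraries per group limit what could be detected; causes were not tested.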
